A study of Mus musculus with 12 samples.

Results

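The 28 genes described here encode the enzymes of cholesterol synthesis and the proteins that control it through SREBP, and they were followed across 4 groups of mouse macrophages. They were taken from a list of mevalonate and sterol pathway genes by matching each probe's transcript accession to the gene, and 28 of 28 were on the array among 20887 named genes. They carried 40 probes, 16 genes having 1 probe and 12 genes having 2, and all 40 probes were well above background on all 12 arrays. All 28 genes therefore passed the filter on dim probes and stood among the 13116 genes tested. The members fall into a mevalonate arm (Acat2, Hmgcs1, Mvk, Pmvk, Mvd, Idi1, Fdps), the step from squalene to lanosterol (Fdft1, Sqle, Lss), the conversion of lanosterol to cholesterol (Cyp51, Lbr, Tm7sf2, Msmo1, Nsdhl, Hsd17b7, Ebp, Sc5d, Dhcr7), an isoprenoid branch (Ggps1, Dhdds), the SREBP factors with their regulators (Srebf1, Srebf2, Scap, Insig1, Insig2), and a sterol carrier and a lipogenic enzyme (Stard4, Fasn).

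The study compared bone marrow-derived macrophages of ERRα+/+ and ERRα-/- mice, ERRα being a nuclear receptor encoded by Esrra. All cells came from male mice of the C57BL6 strain, 6 to 8 weeks old, and were differentiated with macrophage colony-stimulating factor over 5 to 7 days. Cells of both genotypes received either PBS, the solvent, or LPS at 100 ng/mL, a component of the bacterial envelope sensed by TLR4, which makes 4 groups. Each group had 3 arrays, replicate 1 on slide 1 and replicates 2 and 3 on slide 2. The time of LPS exposure, the part of Esrra that was deleted, and whether replicates came from separate mice are not given in the sources used here, so the p-values measure only the spread between these samples, which may be technical. A label of replicates 2 and 3 also calls their source a cell line.

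Cholesterol is built from acetyl units through mevalonate, isoprenoid diphosphates, squalene and lanosterol. The pathway is switched on by SREBP factors, which wait in the endoplasmic reticulum with their escort SCAP. When membrane sterols are high, INSIG proteins hold the SCAP complex back. When sterols are low, the complex moves to the Golgi, where proteases release the active SREBP. SREBP-2, from Srebf2, acts mainly on sterol genes and SREBP-1, from Srebf1, mainly on fatty acid genes, and NF-Y and Sp1 are known partners at their promoters. In macrophages, sterol synthesis is also known to respond to inflammatory signals, and oxysterols such as 25-hydroxycholesterol, made by Ch25h, restrain SREBP processing.

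Levels are log2 processed signals relative to the 75th percentile of the same array, so a level of 0 means a signal equal to that percentile, and levels of different genes are not compared. Each difference is on the log2 scale and is followed by ± its standard error in the limma fit, from 3 arrays per group, or 6 per genotype when averaged over PBS and LPS. Between 46.3% and 57.4% of spots per array were well above background. Spots of the same probe varied by 12.4% (coefficient of variation) on ERRα+/+ PBS replicate 2 and by 8.19% on ERRα+/+ PBS replicate 3, against at most 4.59% on the others. For the Esrra signal, ERRα-/- minus ERRα+/+ was -2.85 ± 0.36 over both treatments (limma adjusted p = 0.00390), -3.59 ± 0.51 under PBS (adjusted p = 0.0218) and -2.11 ± 0.51 under LPS (adjusted p = 0.202). If this probe lies outside the deletion, it is no check of the genotype. Of the macrophage markers 7 of 8 were on the array and well above background, and 6 of 6 genes of the classical LPS response rose in both genotypes. The median ERRα-/- minus ERRα+/+ difference of these 6 was 0.82 under PBS, with 4 of 6 above 0, and 0.21 under LPS. At an adjusted p under 0.05 in limma, 0 of 6 differed under either treatment. Averaged over both, 1 of 6 was higher in ERRα-/- cells, where 0.374% of all genes tested were. Its bearing on the 28 genes was not tested.

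The promoters of 6 members are shown as examples, 5 that rose with LPS and 1, Dhcr7, that fell. Other members that rose and had a promoter, among them Acat2, Sc5d and Insig1, are not shown. RefSeq promoters of the GRCm38.p6 build were found for 24 of the 28 genes, not for Fdps, Fdft1, Sqle or Stard4. Each line gives the 250 bases before a start site, read 5′ to 3′ on the gene's strand. Capitals mark 3 motifs searched on both strands, namely an SRE core (TCACNCCAC, bound by SREBP), the NF-Y box (CCAAT, or ATTGG on the other strand) and an ERR motif (TNAAGGTCA). The windows are chr13:119690101-119690350 (plus strand) for Hmgcs1, chr1:169969206-169969455 (minus) for Hsd17b7, chr8:64733579-64733828 (minus) for Msmo1, chr5:4104698-4104947 (minus) for Cyp51, chr13:8885356-8885605 (plus) for Idi1 and chr7:143829964-143830213 (plus) for the last of the 3 listed starts of Dhcr7.
Hmgcs1: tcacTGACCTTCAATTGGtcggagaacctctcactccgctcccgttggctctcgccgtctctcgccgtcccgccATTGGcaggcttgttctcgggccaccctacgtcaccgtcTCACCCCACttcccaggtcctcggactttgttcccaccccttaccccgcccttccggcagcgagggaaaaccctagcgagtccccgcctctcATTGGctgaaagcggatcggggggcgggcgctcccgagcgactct
Hsd17b7: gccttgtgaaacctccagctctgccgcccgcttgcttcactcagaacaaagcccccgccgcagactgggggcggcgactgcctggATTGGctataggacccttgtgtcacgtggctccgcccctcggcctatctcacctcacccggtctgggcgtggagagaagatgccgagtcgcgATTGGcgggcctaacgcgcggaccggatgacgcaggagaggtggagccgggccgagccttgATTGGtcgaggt
Msmo1: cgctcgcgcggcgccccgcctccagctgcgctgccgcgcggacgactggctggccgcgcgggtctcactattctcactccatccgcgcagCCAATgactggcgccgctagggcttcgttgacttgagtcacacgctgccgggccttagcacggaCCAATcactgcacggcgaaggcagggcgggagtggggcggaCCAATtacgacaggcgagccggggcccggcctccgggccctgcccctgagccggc
Cyp51: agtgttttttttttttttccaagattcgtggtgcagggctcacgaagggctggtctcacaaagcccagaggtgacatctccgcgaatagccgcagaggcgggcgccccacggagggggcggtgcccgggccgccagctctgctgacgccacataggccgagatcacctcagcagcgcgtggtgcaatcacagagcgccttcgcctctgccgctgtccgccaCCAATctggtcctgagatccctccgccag
Idi1: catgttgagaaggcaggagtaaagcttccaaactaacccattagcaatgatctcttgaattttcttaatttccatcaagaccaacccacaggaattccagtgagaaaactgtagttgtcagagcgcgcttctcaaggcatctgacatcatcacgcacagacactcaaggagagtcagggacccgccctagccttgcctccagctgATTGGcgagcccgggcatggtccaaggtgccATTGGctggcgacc
Dhcr7: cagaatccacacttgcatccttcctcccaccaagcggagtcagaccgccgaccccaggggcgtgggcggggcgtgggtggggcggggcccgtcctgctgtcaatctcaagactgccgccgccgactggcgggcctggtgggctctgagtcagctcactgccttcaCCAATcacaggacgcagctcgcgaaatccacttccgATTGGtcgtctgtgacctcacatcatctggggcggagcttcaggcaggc

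In windows from 250 bases before to 50 bases after the start, the NF-Y box was present in 22 of the 24 genes, against 41.1% of all 27025 genes with a promoter and 42.7% of those tested here. The exceptions were Acat2 and Scap. Counted by start site, the NF-Y box was in 23 of the 32 promoters of these genes, against 37.4% of all 32851 promoters. An Sp1 box (GGGCGG) was in 21 of 24, against 38.2% of all genes and 64.5% of tested genes, and an E-box (CACGTG) in 6 of 24, against 8.09% and 11.3%. The SRE core was found in Hmgcs1 alone (1 of 24, against 1.44% of all genes), from -137 to -129, and the ERR motif also in Hmgcs1 alone (1 of 24, against 1.43%), from -246 to -238. None of these matches overlapped a match of another motif. A match describes letters only, and the NF-Y box was in genes that rose, in Dhcr7, which fell, and in Insig2, which did not pass the test. In Dhcr7 it was at the start shown and at neither of the other listed starts.

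LPS raised 14 of the 28 genes in ERRα+/+ cells and lowered 2, where 21.8% of all genes tested rose and 24.1% fell (limma, adjusted p under 0.05). In ERRα-/- cells 14 rose and 3 fell, where 24.9% of all genes rose and 25.6% fell. The 13 that rose in both genotypes ran from the start of the pathway to its late steps, namely Acat2, Hmgcs1, Idi1, Fdps, Fdft1, Sqle, Cyp51, Msmo1, Hsd17b7, Sc5d, Insig1, Srebf1 and Stard4. Dhcr7 and Ebp, both enzymes of the last part of the pathway, fell in both. Scap rose in ERRα+/+ cells by the test there, Pmvk rose and Dhdds fell by the test in ERRα-/- cells, and none of these 3 differed between genotypes by the test of the difference itself. The median of the 28 differences was 0.52 in ERRα+/+ cells and 0.61 in ERRα-/- cells, beside -0.00015 and 0.039 over all genes tested. Quantile normalization moved the median of all genes to -0.14 in ERRα+/+ and -0.15 in ERRα-/- cells, and the members then split into 11 higher and 5 lower in ERRα+/+ cells (18.4% and 28.4% of all genes) and 13 and 4 in ERRα-/- cells (20.0% and 30.1%). The counts of lowered members rested on single arrays. In ERRα+/+ cells the count was 5 without ERRα+/+ PBS replicate 1 and 4 without ERRα+/+ LPS replicate 1, and in ERRα-/- cells it was 2 without ERRα-/- PBS replicate 2 or 3 and 1 without ERRα-/- LPS replicate 2 or 3. Since these arrays read the bulk RNA of a culture, fewer cells of a type and less RNA per cell cannot be told apart.

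The second comparison set ERRα-/- cells against ERRα+/+ cells for the same genes. Averaged over PBS and LPS, 11 of the 28 were higher in ERRα-/- cells and 0 were lower, where 0.374% of all genes tested were higher and 0.953% lower. These 11 were Fdps, Idi1, Sqle, Cyp51, Fdft1, Sc5d, Hsd17b7, Insig1, Msmo1, Tm7sf2 and Pmvk, with differences from 1.42 (Fdps) to 0.78 (Pmvk) on the log2 scale. In all, 49 of the 13116 genes tested were called higher, so 11 of those 49 were members. The median of the 28 differences was 0.77, beside -0.019 over all genes, and 26 of 28 were above 0, as were 6009 of all 13116. With the replicate number as a block 17 of the 28 were called higher (1.14% of all genes), the further 6 being Hmgcs1, Mvd, Lss, Nsdhl, Stard4 and Fasn. With the slide as a block 18 were called higher (1.61%), and within slide 2 alone 19 (9.34%). Slide 1 held 1 array per group and allows no test.

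Under LPS alone 6 genes were higher in ERRα-/- cells (Cyp51, Fdps, Hsd17b7, Msmo1, Pmvk and Sc5d) and 0 lower, where 0.0762% of all genes, 10 in number, were higher and 0.0534% lower. All 3 ERRα-/- LPS arrays lay above all 3 ERRα+/+ LPS arrays for 17 of the 28, against 4.61% of all genes, and below them for Scap, against 7.37%. Under PBS 0 of 28 were called by limma, where 0.0686% of all genes were called higher and 0.381% lower. At an unadjusted p under 0.05, 12 were higher under PBS and 0 lower, where 2.62% and 4.03% of all genes were. The 3 ERRα-/- PBS arrays lay above the 3 ERRα+/+ PBS arrays for 13 of the 28, against 5.61% of all genes. With the replicate block 3 genes were called under PBS (Fdps, Fdft1 and Insig1, where 0.381% of all genes were called higher) and 13 under LPS (0.335%), the further 7 being Hmgcs1, Idi1, Fdft1, Sqle, Lss, Nsdhl and Insig1. With the slide as a block 7 (0.640%) and 16 (0.549%) were called. Within slide 2 alone it was 16 under PBS (4.46%) and, under LPS, 18 higher (8.04%) and 1 lower (9.33%). The comparison under LPS shares its arrays with the LPS response of each genotype and with the averaged comparison, so these counts are not separate evidence.

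The count under LPS rested on few arrays and on the filter. With no filter on dim probes, 1 gene was called under LPS (Pmvk, where 0.0144% of all genes were called higher) and 7 on average (0.105%). Under LPS the call of Fdps ended with quantile normalization (adjusted p = 0.0835) and with normexp background correction (adjusted p = 0.0845), and that of Pmvk with quantile normalization (adjusted p = 0.0578). The count under LPS was 0 without ERRα-/- LPS replicate 2 or ERRα+/+ LPS replicate 2, 1 without ERRα-/- LPS replicate 3, 2 without ERRα-/- PBS replicate 2 or 3 or ERRα+/+ PBS replicate 3, and 3 without ERRα+/+ LPS replicate 1. The averaged count fell to 7 without ERRα-/- LPS replicate 2 or 3, ERRα-/- PBS replicate 2 or 3, or ERRα+/+ LPS replicate 2, each time without Idi1, Fdft1, Tm7sf2 and Insig1. The other 7 (Fdps, Sqle, Cyp51, Sc5d, Hsd17b7, Msmo1 and Pmvk) stayed called in all 12 such fits. Leaving out the noisier arrays, ERRα+/+ PBS replicates 2 and 3, left 1 ERRα+/+ PBS array. With the slide as a block, the median of the 28 differences was then 0.37 under PBS, 0.76 on average and 0.93 under LPS. With all arrays and no block these medians were 0.47, 0.77 and 0.93. Over all genes tested the medians without the noisier arrays were -0.039, -0.020 and -0.0080. Array weights were 0.12 to 0.23 on slide 1 and 1.01 to 4.93 on slide 2, so this fit lies near slide 2 alone. With these weights limma called far more genes of every kind. Of the 28 it then called 20 higher and 1 lower on average, where 8.97% and 11.2% of all genes were, 20 and 1 under LPS (8.26% and 11.0%), and 14 higher under PBS (4.03%).

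**Figure D1:**
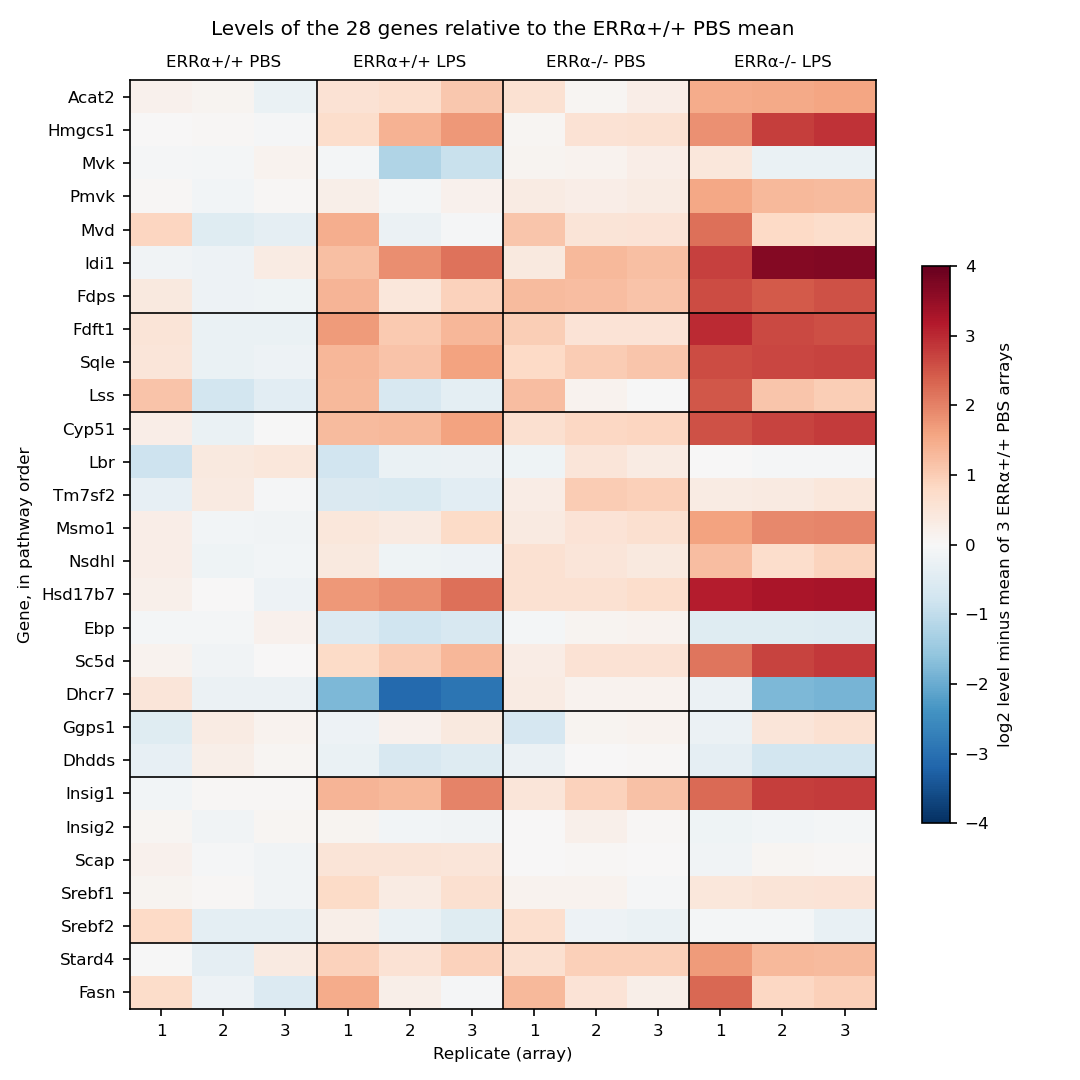
Heat map of the 28 genes (top to bottom in pathway order, black lines between the groups of enzymes and regulators) on the 12 arrays (left to right), coloured by log2 level minus the mean of the 3 ERRα+/+ PBS arrays. Idi1 and Hsd17b7 are the darkest red on the ERRα-/- LPS arrays, Dhcr7 is blue on all 6 LPS arrays, and Lss, Mvd and Fasn are higher on replicate 1 than on replicates 2 and 3 in every group.

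The mevalonate arm begins with acetyl units joined by Acat2 and Hmgcs1, and 4 of its 7 genes rose with LPS in ERRα+/+ cells and 5 of 7 in ERRα-/- cells. Hmgcs1 read 3.68, 3.70 and 3.61 on the ERRα+/+ PBS arrays and 4.37, 5.05 and 5.40 on the ERRα+/+ LPS arrays. ERRα-/- levels of Hmgcs1 were 3.74, 4.24 and 4.27 with PBS and 5.51, 6.44 and 6.55 with LPS. LPS arrays lay above PBS arrays in both genotypes, and ERRα-/- above ERRα+/+ arrays under both treatments, narrowly so under PBS. Hmgcs1, the HMG-CoA synthase, rose by 1.28 ± 0.32 (adjusted p = 0.00787) in ERRα+/+ cells and by 2.08 ± 0.32 (adjusted p = 0.000467) in their ERRα-/- counterparts. Its averaged genotype difference of 0.82 ± 0.22 did not pass (adjusted p = 0.147), but did so with the replicate block (adjusted p = 0.0225). Acat2, which joins acetyl-CoA units, rose by 0.79 ± 0.20 and 1.21 ± 0.20, and its averaged genotype difference of 0.53 ± 0.14 missed the threshold.

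With PBS, Pmvk read 3.57, 3.40 and 3.57 in ERRα+/+ cells and 3.85, 3.78 and 3.84 in ERRα-/- cells. Under LPS, Pmvk read 3.75, 3.45 and 3.69 in ERRα+/+ cells and 5.06, 4.83 and 4.78 in those without ERRα. The 3 ERRα-/- LPS arrays of Pmvk, which encodes phosphomevalonate kinase, stood above all the other 9, and the remaining 3 groups lay close together. Its rise with LPS was 1.07 ± 0.14 in ERRα-/- cells (adjusted p = 0.000193), while the difference in ERRα+/+ cells was 0.12 ± 0.14 (adjusted p = 0.522). Under LPS it was 1.26 ± 0.14 higher in ERRα-/- cells (adjusted p = 0.00946). The test of the difference between those responses gave 0.95 ± 0.20, with an unadjusted p of 0.000603 and an adjusted p of 1.00. The second probe of Pmvk gave 0.065 in ERRα+/+ and 1.13 in ERRα-/- cells.

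The Idi1 level was 1.65, 1.58 and 2.12 in replicates 1, 2 and 3 of ERRα+/+ PBS and 3.00, 3.64 and 3.96 in those of ERRα+/+ LPS. For ERRα-/-, Idi1 stood at 2.18, 3.09 and 2.99 with PBS and 4.52, 5.47 and 5.50 with LPS. Idi1 encodes isopentenyl diphosphate isomerase, and its LPS arrays lay above its PBS arrays in both genotypes, with replicate 1 lowest of its group in 3 of the 4 groups. It rose by 1.75 ± 0.35 (adjusted p = 0.00258) in ERRα+/+ cells and by 2.41 ± 0.35 (adjusted p = 0.000380) in their ERRα-/- counterparts. Averaged over treatments it was 1.30 ± 0.25 higher in ERRα-/- cells (adjusted p = 0.0340).

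In cells given PBS, Fdps levels were 3.30, 2.70 and 2.73 with ERRα and 4.17, 4.13 and 4.04 without it. Given LPS, Fdps was at 4.26, 3.36 and 3.83 with ERRα and 5.53, 5.35 and 5.47 without it. Fdps encodes farnesyl diphosphate synthase, whose product is the last one shared by sterols and other isoprenoids. Its ERRα-/- arrays lay above its ERRα+/+ arrays under each treatment, and the ERRα-/- PBS arrays lay in the same range as the ERRα+/+ LPS arrays. The averaged genotype difference was 1.42 ± 0.16 (adjusted p = 0.00365), the largest among the 28 in the averaged comparison, and under LPS it was 1.63 ± 0.23 (adjusted p = 0.0282). LPS raised Fdps by 0.90 ± 0.23 (adjusted p = 0.00922) with ERRα present and by 1.33 ± 0.23 (adjusted p = 0.00102) without it, the former call ending with quantile normalization (adjusted p = 0.0622). The kinase Mvk and the decarboxylase Mvd passed no test in the main fit, which took all arrays with no block or array weights. Their differences with LPS were -0.73 and 0.39 in ERRα+/+ cells and -0.19 and 0.50 in ERRα-/- cells. With the replicate block, Mvd was called higher in ERRα-/- cells on average (adjusted p = 0.0231), and Mvk was called lower with LPS in ERRα+/+ cells (adjusted p = 0.0308).

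**Figure D2:**
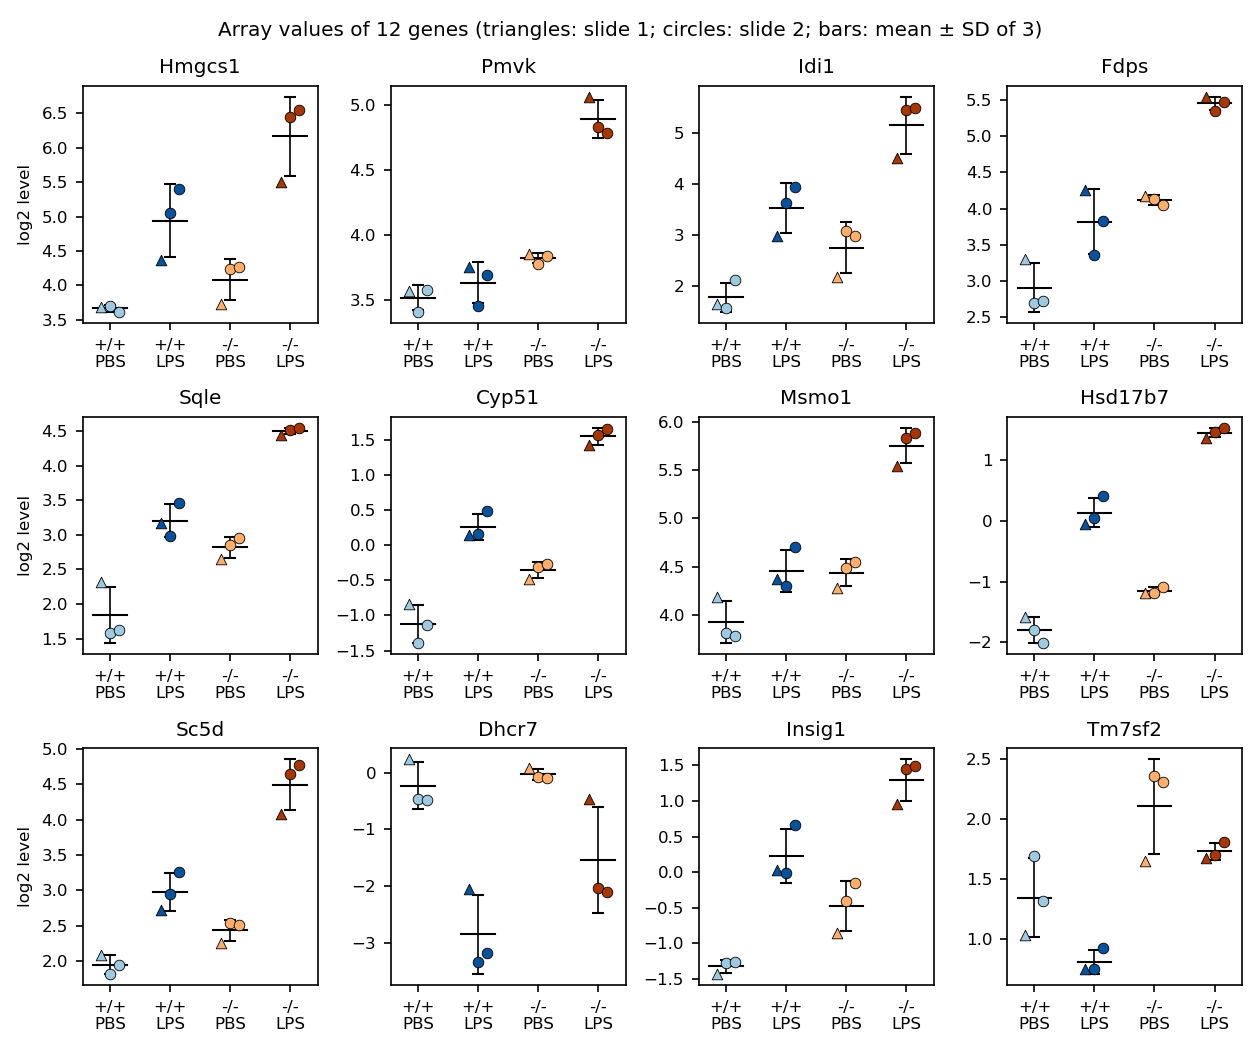
Array values of 12 genes (log2 level relative to the array's 75th percentile, separate vertical axes) in the 4 groups, with a triangle for the slide 1 array, circles for the slide 2 arrays, a line at the mean and a bar of ± SD over 3 arrays. In 10 of the panels, Dhcr7 and Tm7sf2 excepted, the 3 ERRα-/- LPS arrays lie above all the others.

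From farnesyl diphosphate, Fdft1 makes squalene, Sqle oxidises it and Lss closes it to lanosterol. Sqle read 2.31, 1.58 and 1.63 on the ERRα+/+ PBS arrays and 3.17, 2.99 and 3.46 on the ERRα+/+ LPS arrays. ERRα-/- levels of Sqle were 2.65, 2.86 and 2.95 with PBS and 4.45, 4.51 and 4.54 with LPS. Its 4 groups did not overlap, and the ERRα-/- PBS range ended just below the ERRα+/+ LPS range. Sqle, a rate-limiting epoxidase, rose by 1.36 ± 0.21 (adjusted p = 0.000546) in ERRα+/+ cells and by 1.68 ± 0.21 (adjusted p = 0.000148) in their ERRα-/- counterparts, and was 1.14 ± 0.15 higher in ERRα-/- cells on average (adjusted p = 0.00457).

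With PBS, Fdft1 read 0.099, -0.68 and -0.68 in ERRα+/+ cells and 0.57, 0.13 and 0.14 in ERRα-/- cells. Under LPS, Fdft1 read 1.29, 0.63 and 0.92 in ERRα+/+ cells and 2.56, 2.21 and 2.17 in those without ERRα. LPS arrays of Fdft1 lay above PBS arrays in both genotypes and ERRα-/- arrays above ERRα+/+ arrays under both treatments. The tested probe rose by 1.37 ± 0.26 (adjusted p = 0.00170) in ERRα+/+ cells and by 2.04 ± 0.26 (adjusted p = 0.000157) in their ERRα-/- counterparts, with an averaged genotype difference of 1.03 ± 0.18 (adjusted p = 0.0211). A dimmer second probe of Fdft1 did not follow it, with differences of -0.20 and 0.13 with LPS and 0.095 between genotypes. Lss passed no test in the main fit and varied most between replicates among these genes, its averaged genotype difference being 0.94 ± 0.46 (adjusted p = 0.581). With the replicate block, Lss was called between genotypes on average (adjusted p = 0.00526) and for its rise with LPS in ERRα-/- cells (adjusted p = 0.000859).

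Lanosterol is converted to cholesterol by demethylation, reduction and isomerisation, and 4 of these 9 genes rose with LPS in each genotype while 2 fell. The Cyp51 level was -0.84, -1.39 and -1.14 in replicates 1, 2 and 3 of ERRα+/+ PBS and 0.14, 0.16 and 0.48 in those of ERRα+/+ LPS. For ERRα-/-, Cyp51 stood at -0.49, -0.31 and -0.27 with PBS and 1.42, 1.57 and 1.66 with LPS. Cyp51, the lanosterol demethylase, had its highest values on the ERRα-/- LPS arrays, and no LPS array overlapped a PBS array. It rose by 1.39 ± 0.17 (adjusted p = 0.000143) in ERRα+/+ cells and by 1.90 ± 0.17 (adjusted p = 2.21e-05) in their ERRα-/- counterparts. Cyp51 was higher in ERRα-/- cells by 1.03 ± 0.12 on average (adjusted p = 0.00365) and by 1.29 ± 0.17 under LPS (adjusted p = 0.0224).

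In cells given PBS, Msmo1 levels were 4.18, 3.81 and 3.78 with ERRα and 4.28, 4.48 and 4.55 without it. Given LPS, Msmo1 was at 4.37, 4.30 and 4.70 with ERRα and 5.54, 5.84 and 5.89 without it. Msmo1, the C4-methylsterol oxidase, was highest on the ERRα-/- LPS arrays, and its ERRα-/- PBS and ERRα+/+ LPS ranges overlapped. It rose by 0.53 ± 0.18 in ERRα+/+ cells (adjusted p = 0.0307), the highest adjusted p of the 16 genes called there, and by 1.32 ± 0.18 in ERRα-/- cells (adjusted p = 0.000222). Removing ERRα+/+ PBS replicate 2, ERRα+/+ PBS replicate 3 or ERRα+/+ LPS replicate 3 ended the ERRα+/+ call (adjusted p = 0.0929, 0.102 and 0.127), as did quantile normalization (0.366). Normexp background correction and the lack of a filter on dim probes ended that call too. The averaged genotype difference was 0.91 ± 0.12 (adjusted p = 0.00590).

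Hsd17b7 read -1.59, -1.79 and -2.01 on the ERRα+/+ PBS arrays and -0.061, 0.050 and 0.40 on the ERRα+/+ LPS arrays. ERRα-/- levels of Hsd17b7 were -1.19, -1.19 and -1.09 with PBS and 1.36, 1.46 and 1.51 with LPS. Hsd17b7 encodes the 3-ketosteroid reductase of the same demethylation complex, and its 4 groups did not overlap, in the order ERRα+/+ PBS, ERRα-/- PBS, ERRα+/+ LPS and ERRα-/- LPS. The rise with LPS was 1.93 ± 0.16 in ERRα+/+ (adjusted p = 1.32e-05), a fold of 3.80, and 2.60 ± 0.16 in ERRα-/- cells (adjusted p = 2.77e-06), a fold of 6.06. Averaged over treatments it was 0.98 ± 0.11 higher in ERRα-/- cells (adjusted p = 0.00365). A second probe gave nearly the same differences, 1.87 and 2.65 with LPS and 0.97 between genotypes. Nsdhl, the decarboxylase of that complex, had an averaged genotype difference of 0.72 ± 0.15, just outside the threshold (adjusted p = 0.0505). With the replicate block it was called on average (adjusted p = 0.00338) and for its rise with LPS in ERRα-/- cells (adjusted p = 0.00885).

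With PBS, Sc5d read 2.08, 1.81 and 1.94 in ERRα+/+ cells and 2.25, 2.53 and 2.51 in ERRα-/- cells. Under LPS, Sc5d read 2.72, 2.95 and 3.26 in ERRα+/+ cells and 4.08, 4.64 and 4.77 in those without ERRα. The LPS arrays of Sc5d, the lathosterol desaturase, lay above its PBS arrays, and ERRα-/- arrays above ERRα+/+ arrays under both treatments. Sc5d rose by 1.03 ± 0.21 (adjusted p = 0.00254) in ERRα+/+ cells and by 2.07 ± 0.21 (adjusted p = 4.42e-05) in their ERRα-/- counterparts, and was 1.52 ± 0.21 higher in ERRα-/- cells under LPS (adjusted p = 0.0224).

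Dhcr7, which acts on the product of Sc5d and completes one route to cholesterol, moved the other way. The Dhcr7 level was 0.24, -0.46 and -0.48 in replicates 1, 2 and 3 of ERRα+/+ PBS and -2.05, -3.33 and -3.17 in those of ERRα+/+ LPS. For ERRα-/-, Dhcr7 stood at 0.084, -0.083 and -0.098 with PBS and -0.46, -2.03 and -2.10 with LPS. The LPS arrays lay below the PBS arrays in both genotypes, the ERRα-/- LPS arrays spread widely, and replicate 1 was the highest in each group. Dhcr7 fell by 2.61 ± 0.45 (adjusted p = 0.00110) in ERRα+/+ cells and by 1.50 ± 0.45 (adjusted p = 0.0184) in their ERRα-/- counterparts. The call in ERRα-/- cells ended without ERRα-/- LPS replicate 2 (adjusted p = 0.0738) or replicate 3 (0.0748). The difference between those responses was 1.11 ± 0.64 (adjusted p = 1.00). Ebp, the sterol isomerase before Sc5d, fell by 0.66 ± 0.14 (adjusted p = 0.00297) in ERRα+/+ cells and by 0.55 ± 0.14 (adjusted p = 0.00690) in their ERRα-/- counterparts, the former call ending with normexp background correction (adjusted p = 0.0615).

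In cells given PBS, Tm7sf2 levels were 1.03, 1.69 and 1.31 with ERRα and 1.65, 2.36 and 2.30 without it. Given LPS, Tm7sf2 was at 0.75, 0.74 and 0.92 with ERRα and 1.68, 1.70 and 1.81 without it. Tm7sf2 and Lbr encode sterol C14 reductases, and Tm7sf2 was the one gene called in the averaged genotype comparison that did not rise with LPS. Its ERRα-/- arrays lay above its ERRα+/+ arrays under LPS and overlapped them under PBS, and in ERRα+/+ cells the LPS arrays lay below the PBS arrays. The averaged difference was 0.84 ± 0.15 (adjusted p = 0.0259), and a second probe gave 0.81. With LPS the differences were -0.54 ± 0.22 and -0.38 ± 0.22, neither of which passed the test, though the fall in ERRα+/+ cells did with the replicate block (adjusted p = 0.0243). Tm7sf2 lies on chromosome 19 as does Esrra, with 27 protein-coding genes between them, and no other member lies on that chromosome. Lbr passed no test in the main fit, with an averaged genotype difference of 0.30 ± 0.23.

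**Figure D3:**
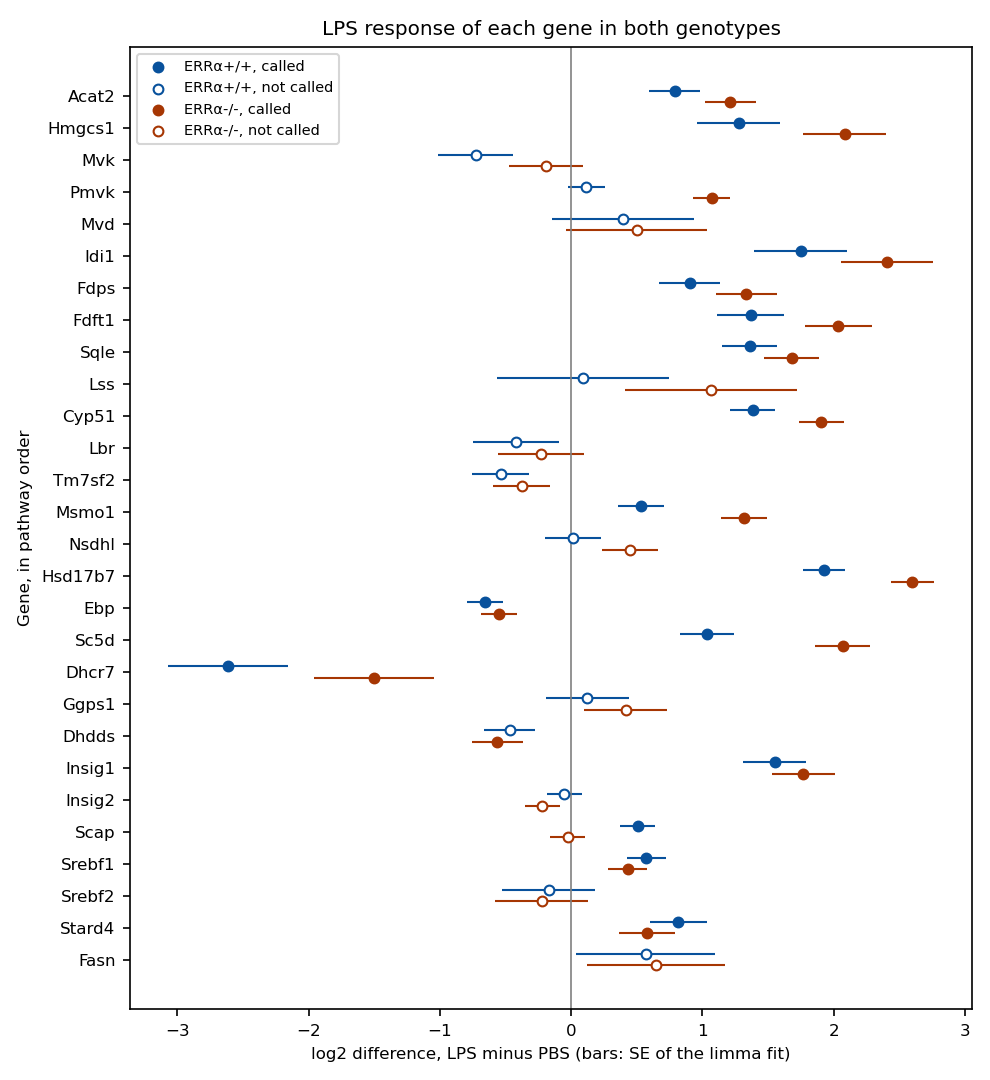
Log2 difference between LPS and PBS (horizontal axis, bars ± SE of the limma fit, 3 arrays per group) for each of the 28 genes (vertical axis, pathway order) in ERRα+/+ (blue) and ERRα-/- cells (brown), filled where called. The 13 genes that rose in both genotypes sit to the right of 0, and Dhcr7 and Ebp to the left, with Dhcr7 at -2.61 and -1.50.

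The sensing and control genes were mixed, with 3 of 5 risen with LPS in ERRα+/+ cells and 2 of 5 in ERRα-/- cells. Insig1 read -1.43, -1.27 and -1.26 on the ERRα+/+ PBS arrays and 0.036, -0.012 and 0.66 on the ERRα+/+ LPS arrays. ERRα-/- levels of Insig1 were -0.85, -0.41 and -0.15 with PBS and 0.96, 1.45 and 1.49 with LPS. Insig1, the SREBP target that retains SCAP, rose by 1.55 ± 0.24 (adjusted p = 0.000579) in ERRα+/+ cells and by 1.77 ± 0.24 (adjusted p = 0.000248) in their ERRα-/- counterparts. Its arrays did not overlap between PBS and LPS or between genotypes, and the averaged genotype difference was 0.96 ± 0.17 (adjusted p = 0.0224). With PBS, Insig2 read 1.84, 1.61 and 1.82 in ERRα+/+ cells and 1.76, 1.97 and 1.80 in ERRα-/- cells. Under LPS, Insig2 read 1.85, 1.63 and 1.63 in ERRα+/+ cells and 1.57, 1.63 and 1.67 in those without ERRα. The LPS arrays of Insig2, the second INSIG gene, lay below the PBS arrays in ERRα-/- cells, and its other pairs of groups overlapped. Its differences with LPS were -0.052 ± 0.13 and -0.22 ± 0.13, neither past the threshold.

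The Scap level was 4.02, 3.79 and 3.71 in replicates 1, 2 and 3 of ERRα+/+ PBS and 4.36, 4.36 and 4.32 in those of ERRα+/+ LPS. For ERRα-/-, Scap stood at 3.87, 3.90 and 3.86 with PBS and 3.71, 3.93 and 3.90 with LPS. Scap encodes the SREBP escort, and its ERRα+/+ LPS arrays stood above the other 9. It rose by 0.51 ± 0.13 in ERRα+/+ cells (adjusted p = 0.00968, but 0.3 with quantile normalization and 0.0513 with normexp background correction), while the difference in ERRα-/- cells was -0.026 ± 0.13 (adjusted p = 0.883). The test of the difference between the responses gave -0.53 ± 0.19, with an unadjusted p of 0.0160 and an adjusted p of 1.00.

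In cells given PBS, Srebf1 levels were -1.22, -1.29 and -1.46 with ERRα and -1.18, -1.19 and -1.36 without it. Given LPS, Srebf1 was at -0.57, -1.01 and -0.67 with ERRα and -0.87, -0.80 and -0.76 without it. LPS arrays of Srebf1, the source of SREBP-1, lay above PBS arrays in both genotypes, and the genotypes overlapped. Srebf1 rose by 0.57 ± 0.15 (adjusted p = 0.00979) in ERRα+/+ cells and by 0.43 ± 0.15 (adjusted p = 0.0328) in their ERRα-/- counterparts, with an averaged genotype difference of 0.0080 ± 0.11 (adjusted p = 0.996). Removing ERRα-/- PBS replicate 2 or 3 ended the ERRα-/- call (adjusted p = 0.0655 and 0.114), as did removing ERRα-/- LPS replicate 2 or 3 (0.0853 and 0.0950). The lack of a filter on dim probes ended it too. The call in ERRα+/+ cells ended with normexp background correction (adjusted p = 0.107).

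The reading for Srebf2, the source of SREBP-2, depended on the probe. Srebf2 read 4.45, 3.26 and 3.25 on the ERRα+/+ PBS arrays and 3.89, 3.39 and 3.18 on the ERRα+/+ LPS arrays. ERRα-/- levels of Srebf2 were 4.33, 3.46 and 3.38 with PBS and 3.58, 3.57 and 3.35 with LPS. On this brighter probe, which was the one tested, replicate 1 was the highest of its group everywhere, the groups overlapped, and the differences with LPS were -0.17 ± 0.36 and -0.23 ± 0.36. The other probe of Srebf2 read -0.77, -0.19 and -0.28 with PBS and 0.67, 0.85 and 1.37 with LPS in ERRα+/+ cells. In ERRα-/- cells that probe read 0.38, 0.37 and 0.38 with PBS and 1.43, 1.84 and 2.28 with LPS. On this dimmer probe the LPS arrays lay above the PBS arrays and ERRα-/- above ERRα+/+ arrays within each genotype and treatment. Its differences were 1.38 and 1.47 with LPS and 0.84 between genotypes. With the mean of both probes the LPS differences became 0.60 (adjusted p = 0.0152) and 0.62 (adjusted p = 0.0115), both past the threshold.

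**Figure D4:**
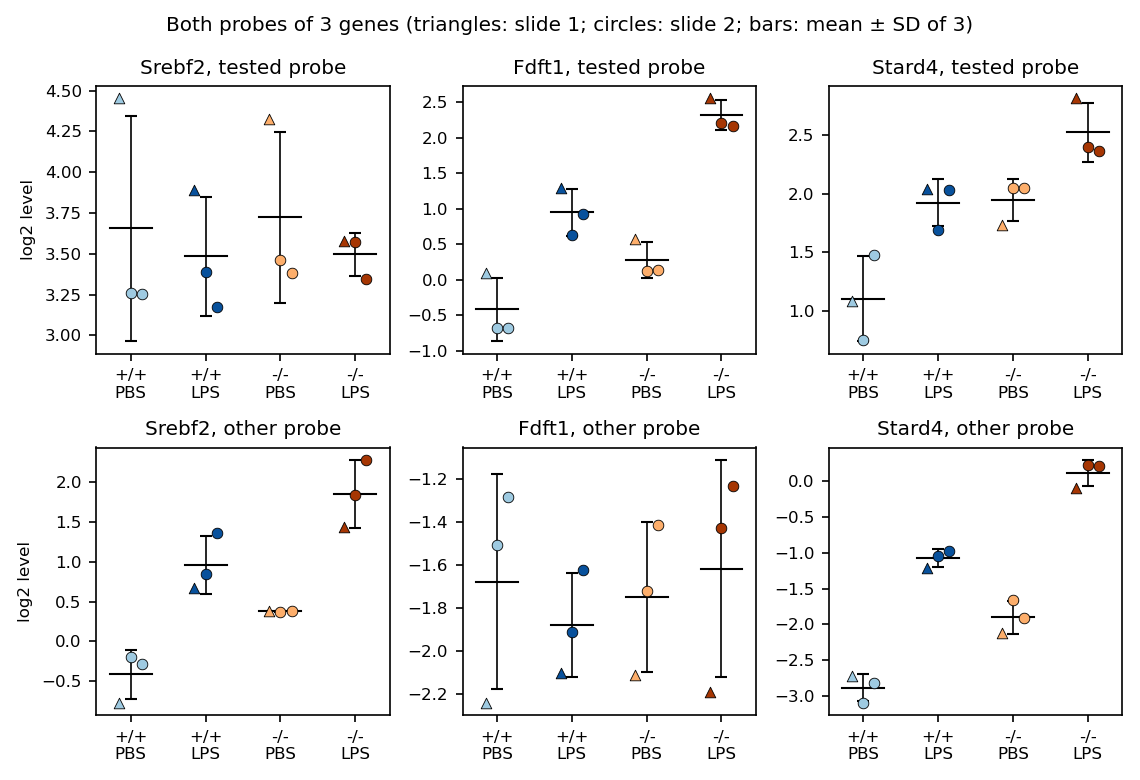
Array values of the tested probe (top) and the other probe (bottom) of Srebf2, Fdft1 and Stard4 (log2 level relative to the array's 75th percentile, separate axes) in the 4 groups, with a triangle for slide 1, circles for slide 2 and mean ± SD over 3 arrays. The other probe of Srebf2 separates the groups where the tested one does not, the other probe of Fdft1 does not separate them, and both Stard4 probes are higher with LPS.

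Stard4, a soluble sterol carrier, rose with LPS by 0.82 ± 0.21 (adjusted p = 0.0102) in ERRα+/+ cells and by 0.58 ± 0.21 (adjusted p = 0.0438) in their ERRα-/- counterparts. The call in ERRα-/- cells ended without any 1 of the 6 ERRα-/- arrays, ERRα+/+ PBS replicate 1 or ERRα+/+ LPS replicate 3, with adjusted p from 0.0516 to 0.129. Quantile normalization, normexp background correction, slide 2 alone and the lack of a filter on dim probes ended that call too. The second probe of Stard4 gave larger differences, 1.81 and 2.02. The averaged genotype difference of Stard4 was 0.72 ± 0.15 (adjusted p = 0.0502, or 0.0272 with the replicate block), with ERRα-/- above ERRα+/+ arrays under both treatments. Fasn, the fatty acid synthase, had an averaged genotype difference of 0.74 ± 0.37 (adjusted p = 0.588) and passed no test in the main fit. With the replicate block it was called higher in ERRα-/- cells on average (adjusted p = 0.00759) and higher with LPS in both genotypes (adjusted p = 0.0107 and 0.00523). On the isoprenoid branch, Dhdds, which lengthens isoprenoid chains for dolichol, fell with LPS by 0.56 ± 0.19 in ERRα-/- cells (adjusted p = 0.0319), and its difference in ERRα+/+ cells was -0.47 ± 0.19. A second Dhdds probe gave -0.079 and 0.039, and the call ended without ERRα-/- replicate 2 or 3 of either treatment, with adjusted p from 0.0933 to 0.106. The mean of its probes and the lack of a filter on dim probes ended the Dhdds call too. Ggps1, the geranylgeranyl diphosphate synthase, passed no test in the main fit, and with the replicate block its rise with LPS in ERRα-/- cells did (adjusted p = 0.0119).

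**Figure D5:**
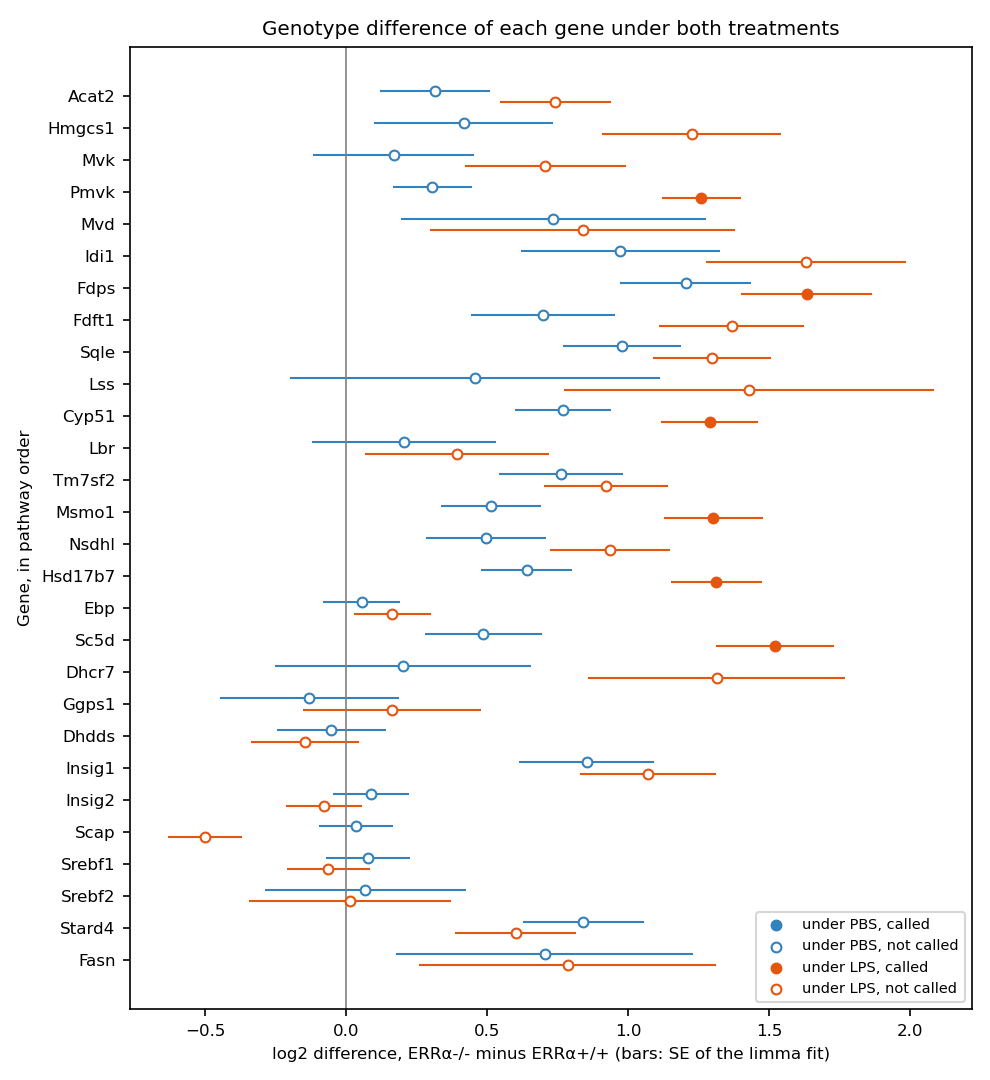
Log2 difference between ERRα-/- and ERRα+/+ cells (horizontal axis, bars ± SE of the limma fit, 3 arrays per group) for each of the 28 genes (vertical axis, pathway order) under PBS (blue) and LPS (orange), filled where called. Of the 28 genes, 26 lie to the right of 0 under PBS and 24 under LPS, the 6 filled points are all under LPS, and Scap under LPS lies at -0.50.

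The arrays can also be read by replicate number, which pairs arrays of the same slide. Under PBS, ERRα-/- was above ERRα+/+ for 23, 25 and 23 of the 28 genes in replicates 1, 2 and 3, and for 19 in all 3. Under LPS the numbers were 22, 26 and 25, and 22 in all 3. No such counts by replicate were made for all genes. By group means, 26 of the 28 were above 0 under PBS and 24 under LPS, beside 5806 and 6397 of all 13116 genes tested. Whether LPS acted differently in the 2 genotypes was asked by the difference of the responses. It was above 0 for 22 of 28 genes and for 6835 of all 13116 tested, with a median of 0.37 beside 0.015 over all genes. Of the 28, 0 passed the adjusted threshold, as did 0% of all genes tested. At an unadjusted p under 0.05, 4 were higher (Pmvk, Msmo1, Hsd17b7 and Sc5d), where 1.14% of all genes were, and 1 was lower (Scap), where 1.06% were. Within slide 2 alone, 3 passed as higher (Pmvk, Sc5d and Dhcr7) and 1 as lower (Scap), where 2.27% and 2.17% of all genes did. With array weights 3 passed as higher and 1 as lower, where 1.88% and 1.99% of all genes did.

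Genes around the pathway were taken from 4 further lists. Of 12 genes for SREBP processing and regulated degradation, 3 rose and 1 fell with LPS in ERRα+/+ cells, 4 rose and 2 fell in ERRα-/- cells, and limma called 0 between genotypes (1 at an unadjusted p under 0.05 on average). Over all genes tested, 21.8% rose and 24.1% fell in ERRα+/+ cells, and 24.9% rose and 25.6% fell in ERRα-/- cells, and the LPS counts of all 4 lists stand beside these shares. The ubiquitin ligase genes Rnf145 and Rnf139, which act on sterol sensing in the endoplasmic reticulum, rose by 1.70 ± 0.22 and 0.94 ± 0.32 in ERRα+/+ and by 1.59 ± 0.22 and 1.28 ± 0.32 in ERRα-/- cells. Faf2, which helps extract proteins for degradation, rose by 0.92 ± 0.25 and 1.03 ± 0.25. A second Faf2 probe did not follow, with differences of 0.10 and -0.0034. Of 18 lipogenic targets, 16 were tested, and 2 rose and 4 fell in ERRα+/+ cells, against 5 and 4 in ERRα-/- cells. The fatty acid desaturase Fads1 fell by 2.64 ± 0.49 and 2.51 ± 0.49, malic enzyme Me1 rose by 1.99 ± 0.37 and 1.43 ± 0.37, and the elongase Elovl6 fell by 1.36 ± 0.20 and 0.59 ± 0.20. Averaged over treatments, 2 of these 16 were called higher in ERRα-/- cells and 0 lower, where 0.374% and 0.953% of all genes tested were. These were Elovl6, by 0.84 ± 0.14 (adjusted p = 0.0179), and Pcyt2, of phosphatidylethanolamine synthesis, by 0.58 ± 0.10 (adjusted p = 0.0236).

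Of 12 genes that use isoprenoids, 3 rose and 0 fell with LPS in ERRα+/+ cells, 3 rose and 3 fell in ERRα-/- cells, and limma called 0 between genotypes (at an unadjusted p under 0.05, 0 on average and 1 under LPS). Pdss1, which builds the ubiquinone side chain, rose by 2.45 ± 0.53 and 2.77 ± 0.53. Nus1, the partner of Dhdds, rose by 0.75 ± 0.24 and 0.90 ± 0.24 on the tested probe, and a dimmer second probe went the other way, with differences of -0.54 and -0.67. Fntb, the farnesyltransferase beta subunit and 1 of the 3 called lower in ERRα-/- cells, was well above background on 1 of 3 ERRα-/- LPS arrays, so the size of its fall is not given. Of 14 genes of sterol esterification, oxysterols and efflux, 3 rose and 6 fell in each genotype. Ch25h, which makes 25-hydroxycholesterol, rose by 6.96 ± 1.02 and 7.72 ± 1.02, and the cholesteryl ester hydrolase Nceh1 fell by 3.00 ± 0.21 and 2.40 ± 0.21. Cyp7b1, which hydroxylates oxysterols, was well above background on no ERRα+/+ PBS array and rose at least 3.86-fold there (limma adjusted p = 8.29e-05), the bound being the mean LPS level over the lowest level measurable on each PBS array. Cyp7b1 was well above background on 0 of the 6 ERRα-/- arrays, so its call there, 1 of the 3 rises, rests on signals at background. Averaged over treatments, the sterol hydroxylase Cyp27a1 was 0.59 ± 0.12 higher in ERRα-/- cells (adjusted p = 0.0462). It was the one gene of those 14 called, where 0.374% of all genes tested were called higher and 0.953% lower.

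Markers of other cells were read beside these results. Of 5 stromal markers tested of 6, all 5 lay lower in ERRα-/- cells on average (median -0.97). Among them 1, Cxcl12, was called, where 0.953% of all genes tested were called lower. The stromal sum of linear signals relative to the 75th percentile was 4.66 to 10.0 in ERRα+/+ PBS, 3.13 to 3.26 in ERRα-/- PBS, 10.6 to 14.7 in ERRα+/+ LPS and 5.41 to 11.4 in ERRα-/- LPS arrays. Of 7 neutrophil markers, 7 lay lower in ERRα-/- cells on average and 0 were called, with sums of 265 to 385, 201 to 245, 229 to 458 and 274 to 431 in the same order. Macrophage markers were higher in 7 of 7 on average, with 0 called and sums of 710 to 1249, 973 to 1367, 1320 to 1559 and 1392 to 1703. Of 5 dendritic cell markers and 4 lymphocyte markers tested, 0 were called between genotypes, and 4 of 4 adipocyte markers were well above background on no array. At an unadjusted p under 0.05 in limma's averaged comparison, 4 of 5 stromal, 3 of 7 neutrophil, 1 of 7 macrophage, 1 of 5 dendritic cell and 0 of 4 lymphocyte markers differed, beside 1244 of all 13116 genes. The part of the stromal, neutrophil and macrophage signal in the genotype differences of the 28 genes was not tested.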

How the data were processed

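The 28 genes and the further lists were chosen with earlier results of these data known. Per the file headers, the deposited processed signal intensity is background-subtracted and detrended by Agilent Feature Extraction, given as version 9.3.2.1 in the submitters' processing notes and as another version in the headers. Per the file headers, the deposited median intensity of spot and local background is raw, and the deposited flags of 0 or 1 mark spots well above background and outliers. The authors applied no normalization between arrays, per the file headers. No columns of other samples were present (0).

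Control spots and outlier spots were left out, spots of a probe were averaged, and log2 intensity was set relative to the 75th percentile of the same array. RefSeq accessions named 27509 probes of 20887 genes. A probe had to be well above background in every array of some group of 3, and the kept probe with the highest mean level stood for its gene. limma 3.58.1 in R 4.3.3 fitted 1 mean per group, with Benjamini-Hochberg adjustment over 13116 genes and calls at an adjusted p under 0.05. The number of arrays limits the precision. limma was tested on simulated data. Array values are given for the 8 members with the largest LPS differences among those called, each member called between genotypes, and the SREBP factors with Scap and the Insig genes. In the 4 further lists, the 3 largest called LPS differences and each genotype call are named.

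The replicate numbers were checked as pairs, and deviations of arrays with the same number correlated at 0.14 to 0.78 in 18 of 18 pairs. The replicate 1 pairs, alone on slide 1, cannot tell pairing from slide. Within slide 2 the range was 0.14 to 0.65 for the same number and 0.13 to 0.56 for replicates 2 with 3 across groups. These ranges largely overlap, so pairing beyond the slide is not established. The replicate number as a block, the slide as a block, slide 2 alone, normexp background correction (offset 50), quantile normalization, other probe filters, array weights and leaving out arrays were the alternatives.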

Additional observations from a re-analysis of the deposited data

How the results depend on the processing

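The genotype counts depended on how the slides were treated, and no called member changed direction under any alternative. Averaged over treatments, 11 of the 28 were called, and 7 with no filter on dim probes, 18 with slide as a block, 17 with the replicate block, 19 within slide 2 and 21 with array weights. Without 1 array at a time the averaged count was 7 to 12. Under LPS 6 were called, and 1 with no filter, 16 with slide as a block, 13 with the replicate block, 19 within slide 2, 21 with array weights and 0 to 8 without 1 array. Under PBS 0 were called, and 1 with the mean of a gene's probes, 7 with slide as a block, 3 with the replicate block, 16 within slide 2, 14 with array weights and 0 to 2 without 1 array. For the difference of responses 0 were called, and 4 within slide 2 and 4 with array weights. The LPS counts, both directions together, stayed within 1.5 times the total reported, at 15 to 19 in ERRα+/+ and 13 to 17 in ERRα-/- cells without 1 array, and the lowest was 11 in ERRα+/+ cells without both noisier arrays and with the slide as a block, against 20 with that block alone. The lower members alone moved more, from 2 to 6 of 28 in ERRα+/+ and 1 to 7 in ERRα-/- cells over all alternatives. The replicate block ended no call in the averaged comparison. Srebf2 turned from below to above 0 with the mean of its probes, at 0.60 in ERRα+/+ and 0.62 in ERRα-/- cells, since its probes differ. The causes were not tested. The deposited series table equalled the processed signal on every array, so it was not run apart. Blocking and slide 2 use fewer residual degrees of freedom or arrays, and the 46.3% to 57.4% of spots well above background limit which other genes could be read.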
